A study of Rattus norvegicus with 2 samples.

Results

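The genes that copy DNA and carry out mitosis were read in cultured embryonic rat cortex in 1 control and 1 RNAi library. A list of 51 such genes, matched by RefSeq identifier to the rat gene symbol or, where the identifier had no symbol, by the description in the deposited tables, was looked up among the 9894 genes with a tag in either library. Of these, 48 were listed, 45 by identifier and 3 (Mcm5, Top2a and Uhrf1) by description, and every listed gene had tags in both libraries. Bub1b, Mad2l1 and Ect2 were not listed in either library.

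The cells came from the somatosensory cortex of E16 Sprague-Dawley rats and were dissociated and electroporated. One culture received a control plasmid, the other an RNAi plasmid against PIWIL1, a PIWI-family protein best known from the germline, and both were kept for 48 h in a medium that contained serum. The labels do not name the siRNA that was sequenced, no sorting of electroporated cells is described for these cultures, and each condition has 1 library, so differences have no replicate check. Each library is a digital gene expression profile, in which each transcript is sampled as a 21-base tag beginning at one of its CATG sites. The copies of a gene's tags are added up, and TPM is this sum per 1000000 clean tags of the library, with no division by gene length. The control library held 1947600 copies on genes and the RNAi library 1865913.

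The targeted gene could not be checked, because no listed gene carried the symbol Piwil1. The neuronal markers Tubb3, Dcx and Stmn2 had 1068 to 7484 copies in each library, and Mapt, Neurod2 and Neurod6 had 570 to 4138. Tbr1 (85 and 84 copies), Map2 (24 and 8) and Rbfox3 (8 and 8) had fewer, and Bcl11b was not listed. The progenitor markers Sox2, Nes, Slc1a3, Pax6, Fabp7, Hes1, Hes5, Notch1 and Vim were all listed as well, while Eomes was not. The cultures therefore held transcripts of progenitors beside those of neurons.

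A dividing cell first loads the MCM helicase onto origins of replication, and cyclin E, cyclin A and their kinases then start DNA synthesis. The clamp PCNA holds the polymerases on the template, and ligase and flap endonuclease join the fragments of the lagging strand. In mitosis cyclin B and CDK1 drive condensation and spindle assembly, kinetochores attach chromosomes to microtubules, and a checkpoint holds back CDC20 until all are attached. In embryonic cortex many of these transcripts are made mainly by radial glia and intermediate progenitors and fall in newborn neurons. Whether this holds for each member was not tested here. In a whole culture, fewer dividing cells and less of such RNA per cell cannot be told apart.

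Of the 48 genes, 6 were lower in the RNAi library and 1 was higher, where a call needed a log2 ratio outside -0.58 to 0.58 and an FDR of at most 0.05 in Fisher's exact test. Those that fell were Pcna, Lig1, Smc2, Ttk, Haus1 and Prc1, and the gene that rose was Ndc80. Among all 9894 genes, 5.97% were lower and 2.96% higher by the same thresholds. The FDR alone was passed by 10 members with lower and 2 with higher copy numbers, against 9.53% and 7.14% of all genes. The test compares these libraries and not the conditions, since counting is its only error.

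The members together had 9027 copies in the control library and 7747 in the RNAi library, or 2665 and 2345 TPM. The log2 ratio of these sums was -0.18 (95% exact interval -0.23 to -0.14, counting error only). The 23 genes of DNA synthesis, its nucleotide supply and its checkpoints went from 5773 to 4853 copies, a log2 ratio of -0.21 (interval -0.27 to -0.16), with 2 called lower. The 19 listed genes of mitosis went from 1902 to 1778 copies, a log2 ratio of -0.06 with an interval that included 0 (-0.16 to 0.03), with 4 called lower and 1 higher. The medians were in the other order, -0.16 for the former genes and -0.23 for the genes of mitosis, and the difference was not tested. The median log2 ratio over the 48 members was -0.22, against -0.08 over the 8899 genes listed in both libraries. It was below 0 for 33 members, and 56.7% of all genes listed in both libraries lay below 0. A ratio of -0.58 or less was seen in 14 members (18.3% of all genes) and a ratio of 0.58 or more in 2 (9.92%). When each tag was corrected for its last bases, the medians were -0.11 for the members and -0.08 for all genes, 2 members were lower (Pcna and Smc2) and Ndc80 was higher. With edgeR's TMM scaling 459 of all genes were lower and 398 higher, in place of 591 and 293, and 3 members were lower (Lig1, Ttk and Haus1).

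**Figure D1:**
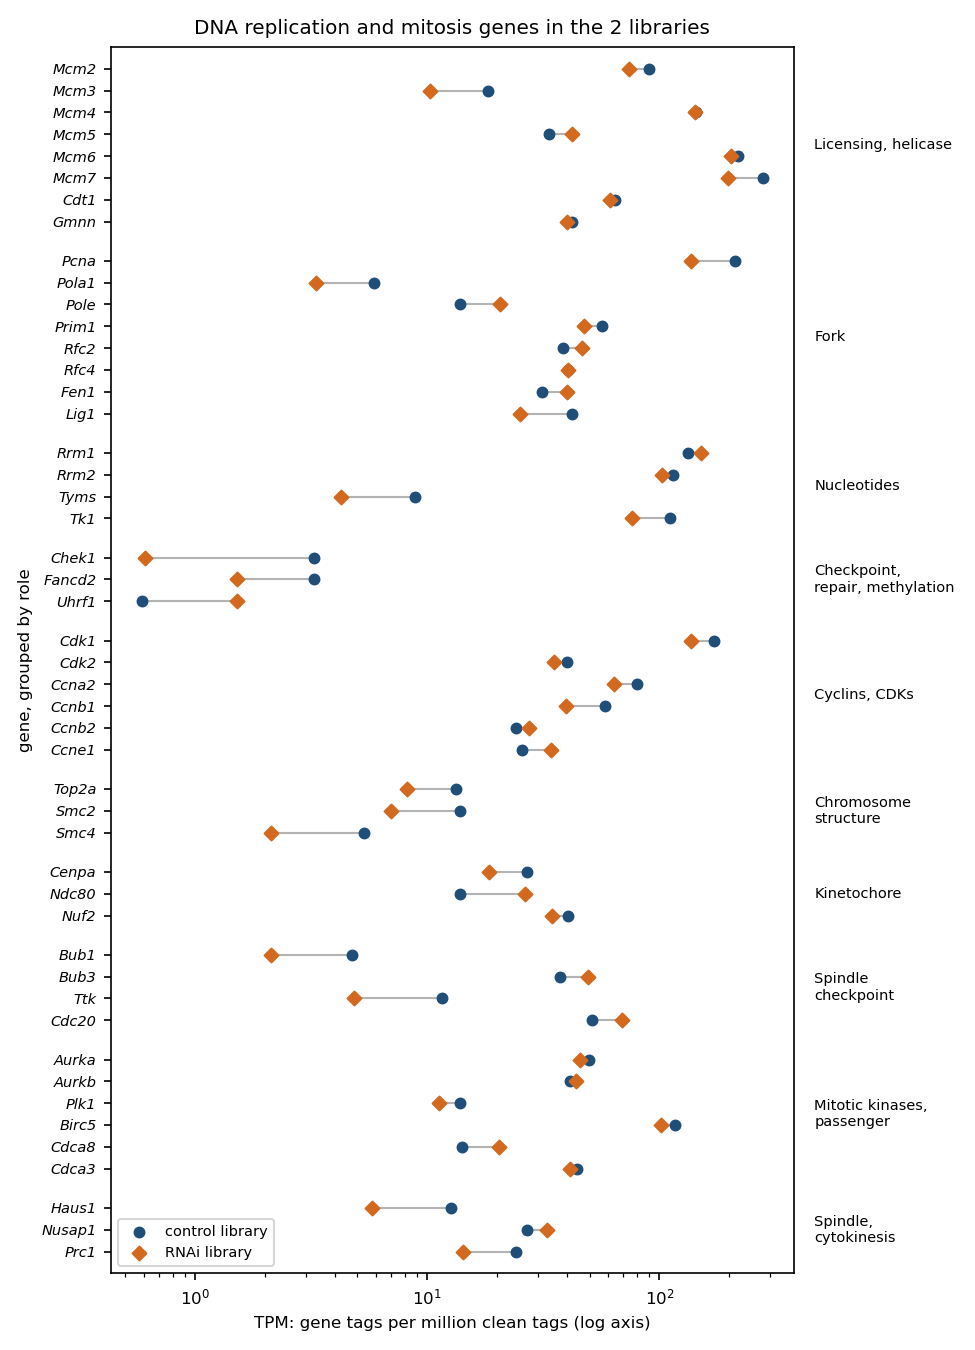
TPM of each of the 48 listed genes (horizontal log axis, gene tags per 1000000 clean tags) in the control library (blue circles) and the RNAi library (orange diamonds), grouped by role, with a grey line joining the 2 values of a gene. Both values of Mcm7, Mcm6, Mcm4, Pcna, Rrm1, Rrm2, Cdk1 and Birc5 lie above 100 TPM, and most pairs lie close together, with 33 of the 48 RNAi values to the left.

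The MCM proteins form the ring-shaped helicase that is loaded onto origins and later unwinds the DNA. Mcm7 had the most copies of all members, 944 in the control library and 654 in the RNAi library (279 and 198 TPM). Its log2 ratio of -0.49 (95% exact interval -0.64 to -0.35) passed the FDR (4.52e-09, Fisher's exact test) but not the ratio threshold. Mcm2 had 305 and 244 copies (-0.29), Mcm4 488 and 472 (-0.01), Mcm5 113 and 139 (0.33) and Mcm6 738 and 670 (-0.10), and none of these passed the FDR. Mcm3, with 62 and 34 copies, had a log2 ratio of -0.83 and narrowly missed the threshold (FDR 0.0588, Fisher's exact test). The intervals of Mcm5 (-0.03 to 0.71) and Mcm7 did not overlap. The pair was picked after the values were seen, and the intervals cover counting error only. With the most copied tag alone the intervals of Mcm5 (-0.49 to 0.68) and Mcm7 (-0.67 to -0.37) overlapped. The licensing factor Cdt1 (219 and 202 copies) and its inhibitor Gmnn, which codes for geminin (142 and 132), differed by less than counting error, with log2 ratios of -0.08 and -0.07.

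The most copied tags of the 3 members with the most copies and of the called members are shown because they carry much of the copies behind those values, from 34.9% in Prc1 to 95.4% in Mcm7. The capitals mark the bases at the tag's end (the last 2, or the whole run where it ends in 3 or more A), which the correction for the tag end uses. Tags were numbered from the 3′ end of the transcript. The tags of Mcm7 and Mcm6 at the first CATG site went from 907 to 618 and from 676 to 610 copies.
Mcm7, site 1: catgctgcacttttttattCT
Mcm6, site 1: catgtgactgcgggaattgCT
Both end in CT, and the median log2 ratio of all tags with this end was -0.25. Corrected for tag ends, Mcm7 had a log2 ratio of -0.34 and Mcm6 one of 0.08. Mcm7 still passed the FDR (0.000845, Fisher's exact test) but not the ratio threshold, and Mcm6 did not pass the FDR. The tag of Mcm7 at the second site went the other way, from 6 to 14 copies, with an interval that included 0 (-0.21 to 2.93).

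At the replication fork 2 of 8 members fell, and none passed both thresholds upwards. Pcna, the sliding clamp of the DNA polymerases, fell from 719 to 451 copies (212 and 137 TPM). Its ratio was 0.643 and its log2 ratio -0.64 (95% exact interval -0.81 to -0.46, Fisher's exact test, FDR 4.03e-11). The 4 tags of Pcna that reached 20 copies in the libraries together were all lower in the RNAi library, with log2 ratios from -1.16 to -0.59. The first 2 CATG sites carried most of the copies, 589 and 382 at the first site and 84 and 41 at the second.
Pcna, site 1: catgggacacttaaagtatTA
Pcna, site 2: catgtccaaaattctaaaaTG
The tag at the first site ends in TA, an end with a median log2 ratio of 0.04 over all tags, and the tag at the second site in TG, an end with a median of -0.70. With TMM scaling the log2 ratio of Pcna was -0.54 and no longer passed the ratio threshold.

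Lig1, the ligase that seals the fragments of the lagging strand, fell from 142 to 83 copies, a log2 ratio of -0.74 (95% exact interval -1.15 to -0.34, Fisher's exact test FDR 0.00329). A tag ending in GT carried 91.6% of its copies, 131 and 75.
Lig1, site 1: catggttactattggactgGT
The median log2 ratio of all tags ending in GT was -0.68, close to that of Lig1. Corrected in this way, Lig1 had a log2 ratio of -0.18 and was no longer called.

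The other fork genes gave no common direction. The clamp loader subunits Rfc2 (130 and 153 copies, log2 ratio 0.27) and Rfc4 (137 and 134, 0.00), the primase subunit Prim1 (191 and 156, -0.26) and the flap endonuclease Fen1 (106 and 132, 0.35) did not pass the FDR. Pole, the catalytic subunit of the leading-strand polymerase, had 47 and 68 copies (0.57), and Pola1, the catalytic subunit of the polymerase that works with primase, 20 and 11 (-0.83). Neither passed the FDR (0.135 and 0.381, Fisher's exact test).

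Among the enzymes that supply nucleotides, none passed both thresholds. Tk1, thymidine kinase, had 377 and 252 copies, a log2 ratio of -0.55 (95% exact interval -0.78 to -0.31), and passed the FDR (0.000144, Fisher's exact test) but not the ratio threshold. Rrm1, the large subunit of ribonucleotide reductase, had 450 and 501 copies (0.19), and Rrm2, the small subunit, 389 and 339 (-0.16). Tyms, thymidylate synthase, had 30 and 14 copies (-1.06, FDR 0.112 by Fisher's exact test). The S-phase kinase Chek1 had 11 and 2 copies (log2 ratio -2.42, interval -5.64 to -0.23), Fancd2, of the Fanconi anaemia repair pathway, 11 and 5, and Uhrf1, which keeps up DNA methylation at the fork, 2 and 5. With so few copies none of these 3 passed the FDR, and for Fancd2 and Uhrf1 the interval included 0.

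The cyclins and their kinases gave no call in either direction. Cdk1, the kinase of mitotic entry, had 581 copies in the control library and 454 in the RNAi library, a log2 ratio of -0.32 (95% exact interval -0.50 to -0.14, Fisher's exact test FDR 0.0107). Ccnb1, its cyclin B1 partner, had 197 and 131 copies, a log2 ratio of -0.55 (interval -0.88 to -0.23, FDR 0.00994 by the same exact test). Both passed the FDR and missed the ratio threshold. Corrected for tag ends, neither passed the FDR, with log2 ratios of -0.04 for Cdk1 and -0.23 for Ccnb1. Cdk1 also missed it with TMM (-0.23) or DESeq2 scaling (-0.23), and Ccnb1 with the most copied tag alone (-0.27). The other mitotic cyclin, Ccnb2, had 82 and 91 copies (0.19), with an interval (-0.26 to 0.63) that overlapped that of Ccnb1 only at its lower end. Ccna2 had 270 and 211 copies (-0.32), Cdk2 135 and 116 (-0.18) and Ccne1, cyclin E1, 87 and 113 (0.41), and none of them passed the FDR.

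The genes of chromosome structure were the only role group in which every listed member had a log2 ratio of -0.58 or less. All 3 had fewer than 100 copies in the libraries together, and the group was picked out after the values were seen. Of the 13 members of that depth in any role, 11 had such a ratio, against 27.7% of all genes of that depth listed in both libraries. Smc2, a core subunit of the condensin complexes that compact chromosomes, fell from 47 to 23 copies, a log2 ratio of -0.995 (95% exact interval -1.78 to -0.25, Fisher's exact test FDR 0.0493). Its partner Smc4 had 18 and 7 copies (-1.33, FDR 0.173 by Fisher's exact test) and Top2a, the topoisomerase that disentangles sister chromatids, 45 and 27 (-0.70, FDR 0.209 by the same exact test). The 3 genes together went from 110 to 57 copies, a log2 ratio of -0.91 (interval -1.40 to -0.44, counting error only). The call of Smc2 rested on few copies, and it was lost with 1 copy added to every gene, with TMM or DESeq2 scaling, without the tags that end in a run of A, and with the most copied tag alone, while its log2 ratio stayed between -0.995 and -0.88. Corrected for tag ends, Smc2 kept its call with a log2 ratio of -1.22.
Smc2, site 1: catgctcgtagttttcagaGC
This tag carried 34 and 18 of the copies of Smc2, and the median log2 ratio of all tags ending in GC was 0.15.

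Ndc80, the subunit after which the microtubule-binding complex of the kinetochore is named, was the member that rose, from 47 to 87 copies (13.9 and 26.3 TPM). Its ratio was 1.90 and its log2 ratio 0.92 (95% exact interval 0.40 to 1.47, Fisher's exact test FDR 0.00281). Nuf2, which pairs with it in the same complex, had 137 and 114 copies, a log2 ratio of -0.23 with an interval (-0.60 to 0.14) that did not overlap that of Ndc80. These intervals cover counting error only, and the genes were compared after the call of Ndc80 was known. Corrected for tag ends, both log2 ratios were above 0, at 0.36 for Nuf2 and 0.69 for Ndc80. Cenpa, the centromeric histone, had 91 and 61 copies (-0.54) and did not pass the FDR (0.145, Fisher's exact test). The rise of Ndc80 lay on a single tag, which went from 31 to 78 copies, while its second tag went from 16 to 5.
Ndc80, site 1: catggtagattagatgtgaCA
Ndc80, site 2: catgtagggtctttggagAAA
The intervals of these tags lay on opposite sides of 0 (0.75 to 2.02 at the first site and -3.45 to -0.13 at the second). The medians of all tags with these ends were both above 0, at 0.16 for CA and 0.17 for a run of 3 A. Ndc80 remained called with the scalings, filters and choices of tags that were tried, but not with an assumed spread between replicates or with stricter thresholds.

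In the spindle checkpoint the members went in different directions. Ttk, the kinase that recruits the checkpoint proteins to kinetochores, fell from 39 to 16 copies, a log2 ratio of -1.25 (95% exact interval -2.19 to -0.38, Fisher's exact test FDR 0.0289). Cdc20, the activator of the anaphase-promoting complex that the checkpoint restrains, had 173 and 229 copies, a log2 ratio of 0.44 (interval 0.15 to 0.73), and passed the FDR (0.0119, Fisher's exact test) but not the ratio threshold. Corrected for tag ends (0.34) or with the most copied tag alone (0.26), Cdc20 did not pass the FDR. Bub3, with 126 and 162 copies, lay in the same direction (0.40) and did not pass it (FDR 0.0717, the same exact test), and Bub1 had 16 and 7 copies (-1.16). The median and the sum of these 4 genes differed in sign, with a median log2 ratio of -0.38 and a summed ratio of 0.26 (354 and 414 copies). Most copies of Ttk were on 1 tag ending in GT, with 34 and 16 copies.
Ttk, site 1: catggcacgtgtatattaaGT
Corrected for its tag ends, Ttk had a log2 ratio of -0.69 and was no longer called, and the call was also lost with the most copied tag alone.

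The mitotic kinases and the passenger complex, which corrects faulty attachments and guides cytokinesis, gave no call. Aurka had 168 and 151 copies (log2 ratio -0.12), Aurkb 139 and 144 (0.09) and Plk1 47 and 37 (-0.31). Birc5, which codes for survivin, had 396 and 336 (-0.20), and Cdca8, which codes for borealin, 48 and 67 (0.52). Cdca3, which was put in this group but is neither a kinase nor a passenger protein, had 149 and 136 (-0.10). The intervals of all 6 genes included 0. The summed copies of these 6 genes were 947 in the control and 871 in the RNAi library, a log2 ratio of -0.08 (interval -0.22 to 0.05).

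Of the spindle and cytokinesis genes, Haus1, a subunit of the augmin complex that branches spindle microtubules, fell from 43 to 19 copies, a log2 ratio of -1.14 (95% exact interval -2.0 to -0.33, Fisher's exact test FDR 0.0325). Prc1, which bundles the microtubules of the central spindle, fell from 82 to 47 copies, a log2 ratio of -0.77 (interval -1.32 to -0.23, FDR 0.0320 by the same exact test). Nusap1, a spindle protein that binds microtubules, had 91 and 108 copies (0.28). The 4 tags of Prc1 that reached 20 copies were all lower in the RNAi library, and the most copied went from 31 to 14. The most copied tag of Haus1 went from 18 to 5.
Prc1, site 1: catgttatctgtgtgatcaCG
Haus1, site 1: catgccttctattaggataAC
Corrected for tag ends, neither gene passed the FDR, although the log2 ratios of Haus1 (-1.11) and Prc1 (-0.72) stayed near the main values. With the most copied tag alone both ratios were larger in size (-1.81 and -1.11) and rested on fewer copies, and again neither passed. Prc1 also missed the FDR with TMM (-0.67) or DESeq2 scaling (-0.68).

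**Figure D2:**
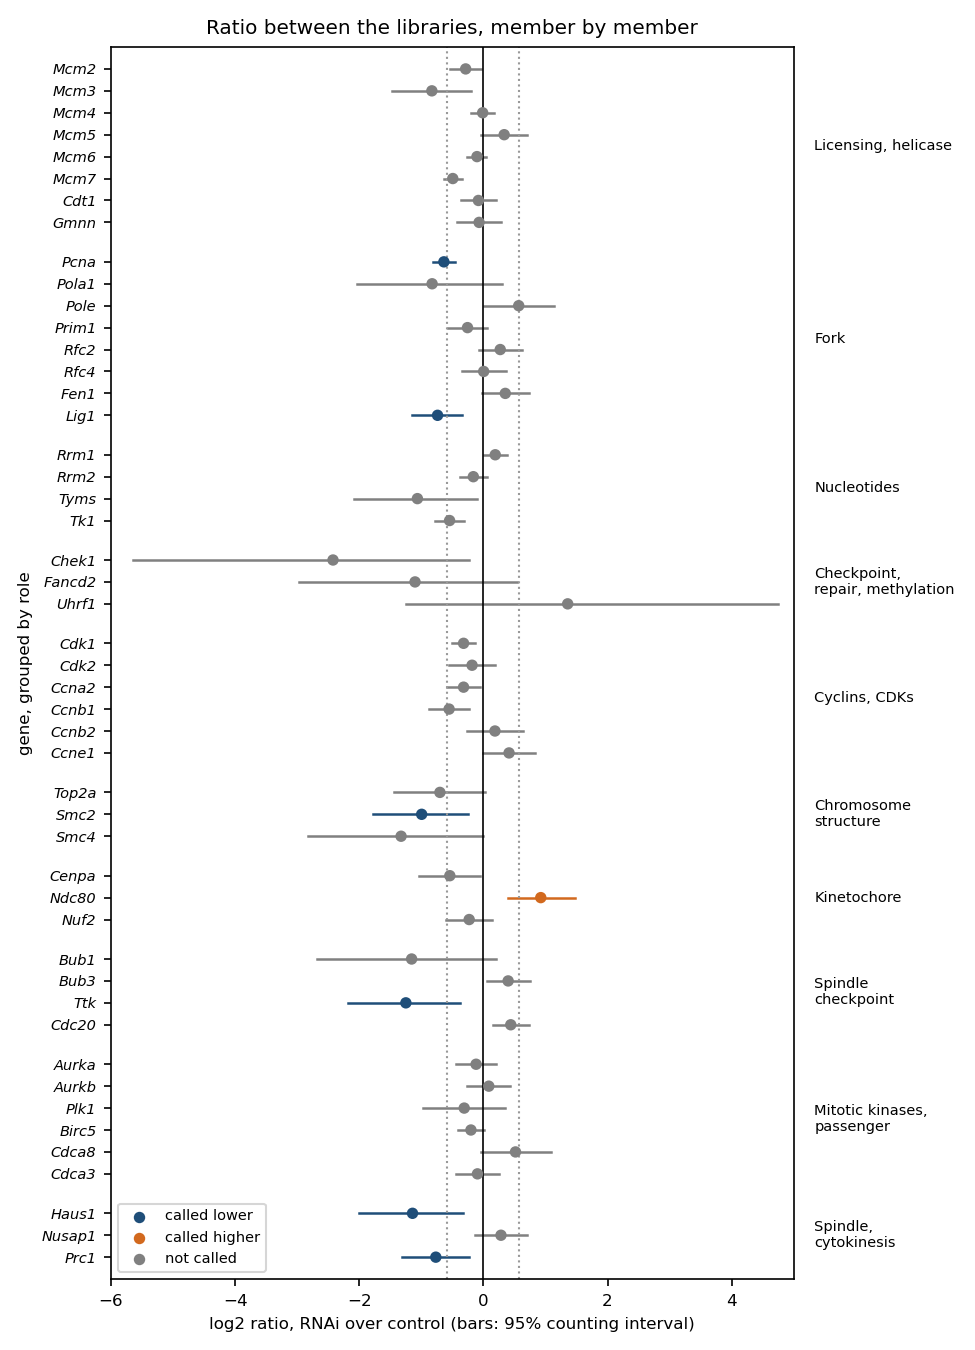
Log2 ratio of the RNAi to the control library for the 48 listed genes, grouped by role, with 95% exact counting intervals (bars), dotted lines at -0.58 and 0.58, and colours for the calls. The 6 genes called lower and the 1 called higher are spread over 5 role groups, and the intervals of 16 genes lie wholly below 0 and those of 5 wholly above it.

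Of the 14 members with a log2 ratio of -0.58 or less, 11 had few copies. Of the 13 members with fewer than 100 copies in the libraries together, 12 had a log2 ratio below 0, 11 had a ratio of -0.58 or less and 3 were called lower, with a median of -1.06. Among all genes of that depth listed in both libraries, 56.6% lay below 0 and 27.7% at -0.58 or less, and 3.73% of all genes of that depth were called lower and 1.46% higher. Of the 35 members with at least 100 copies, 21 had a ratio below 0, 3 were called lower and 1 higher, with a median of -0.10. Of all genes of that depth 56.8% had a ratio below 0, 8.46% were called lower and 4.62% higher. The division at 100 copies was made after the values were seen. Tags with a single copy are absent from both tables, which takes copies from genes with low counts.

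**Figure D3:**
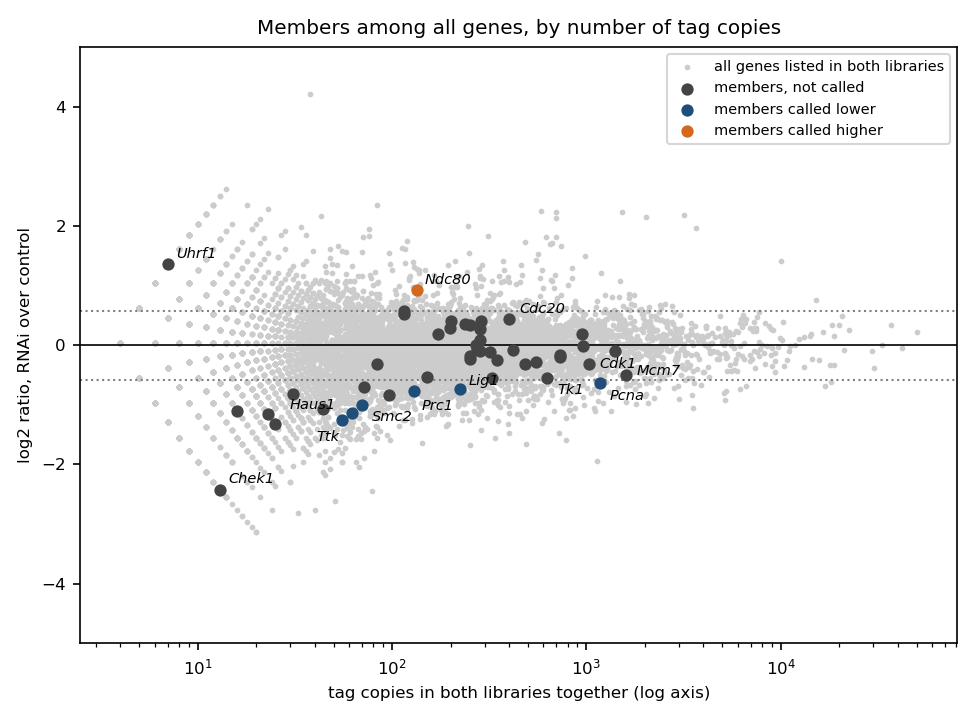
Log2 ratio of the RNAi to the control library against the number of tag copies in both libraries (log axis), for all genes listed in both (light grey) and for the 48 listed members (dark points, coloured where called). Members with more than 100 copies lie between -0.77 and 0.92, within the cloud of all genes, and 12 of the 13 with fewer copies lie below 0.

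Within genes, the tags did not always move together. The members had 262 tags, of which 95 had at least 20 copies, and 59 of these (62.1%) were lower in the RNAi library, against 55.3% of the 16021 such tags of all genes. Of the 29 members with 2 or more such tags, 7 had all of them lower, 4 had all of them higher and 18 (62.1%) had tags in both directions, against 65.9% of the 3985 such genes. None of the members' tags ended in 8 or more A.

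Rrm2 and Fen1 held abundant tags that disagreed beyond counting error, and both were chosen for description after their values were seen. The tag of Rrm2 at its first CATG site went from 204 to 91 copies (log2 ratio -1.13, interval -1.50 to -0.77), the one at the second site from 116 to 159 (0.49, interval 0.14 to 0.85) and the one at the third from 24 to 49 (1.07, interval 0.33 to 1.84).
Rrm2, site 1: catggatcagttcacaagtGG
Rrm2, site 2: catggagagtttacttaacAA
Rrm2, site 3: catgagcactgaccctcaaGC
The log2 ratio of the gene, -0.16, is thus a sum over tags whose intervals lay on opposite sides of 0. The tags of Fen1 at the first and second sites went from 55 to 95 copies (0.82) and from 29 to 11 (-1.36).
Fen1, site 1: catgggctgtttctattttAA
Fen1, site 2: catggactgcctcacttttGG
In both genes the tag that was lower ends in GG, an end with a median log2 ratio of -0.56 over all tags, and a tag that was higher ends in AA, with a median of 0.16. A tag of Prim1 ending in GG also went down, from 27 to 9 copies, as did a tag of Ccnb1 ending in TG, from 27 to 5. The most copied member tag ending in TG, that of Nuf2 at the first site, had 111 and 96 copies (-0.17), with an interval (-0.58 to 0.23) that included 0. When the most copied tag alone stood for each gene, Rrm2, Tk1, Pcna and Lig1 were lower and Bub3, Fen1, Pole and Ndc80 higher.

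Other genes of replication and mitosis were counted in the same way. Of 131 further genes, 101 were listed, 8 of them were lower and 3 higher, against 5.97% and 2.96% of all genes. The median log2 ratio of the 96 listed in both libraries was -0.11, and that of all genes -0.08. Those that fell were Fzr1, an activator of the anaphase-promoting complex (494 to 257 copies, log2 ratio -0.91), the spindle motor Kif11 (118 to 58, -0.99), the chromosome-binding kinesin Kif22 (148 to 85, -0.76), the spindle assembly factor Tpx2 (152 to 96, -0.63), the passenger complex scaffold Incenp (54 to 23, -1.20), topoisomerase Top1 (90 to 51, -0.78), the polymerase epsilon subunit Pole3 (118 to 70, -0.72) and Pttg1, which codes for securin (61 to 32, -0.89). Those that rose were the clamp loader subunit Rfc3 (83 to 197, 1.28), the large primase subunit Prim2 (47 to 93, 1.02) and the centromere protein Cenpm (13 to 40, 1.66). Fzr1, Incenp, Pttg1, Rfc3 and Cenpm each had only 1 tag that reached 20 copies. Which cells carried the transcripts of these further genes was not tested. Some complexes have members in both lists. The interval of Incenp (-1.97 to -0.47) did not overlap those of Aurkb (-0.26 to 0.43), Birc5 (-0.42 to 0.01) and Cdca8 (-0.04 to 1.08). The interval of Rfc3 (0.91 to 1.67) lay above those of Rfc2 (-0.08 to 0.62) and Rfc4 (-0.35 to 0.36), and that of Prim2 (0.50 to 1.56) above that of Prim1 (-0.57 to 0.06). These intervals cover counting error only, and the genes were compared after their calls were known.

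Markers of the cells that could carry these transcripts were set beside them. Of all genes listed in both libraries 56.7% lay below 0, with a median log2 ratio of -0.08, and 5.97% of all genes were called lower and 2.96% higher. The marker values are from the main setting only. Of the 9 listed progenitor markers none was called and 8 had a log2 ratio below 0. The median of the 9 was -0.29, and the 8 lay between -0.81 (Hes1, 52 and 29 copies) and -0.22 (Slc1a3, 231 and 193). Notch1 (48 and 30) and Hes5 (22 and 15) also had few copies. Nes, with 181 and 125 copies (-0.50), passed the FDR (0.0336, Fisher's exact test) but not the ratio threshold. The exception was Vim, with 2674 and 3724 copies (0.51), which passed the FDR (1.63e-47 by the same exact test) but not the ratio threshold. Vim is also made by other cells. It makes up most of the summed level of the list, 1107 TPM in the control and 1379 TPM in the RNAi library. Of the 9 listed neuronal markers, Mapt and Map2 were called lower and the sum went from 4860 to 3739 TPM, with 5 ratios below 0 and 4 above. The call of Map2 rested on 24 and 8 copies. Stmn2 (log2 ratio -0.36), Neurod6 (-0.55) and Tubb3 (-0.49) were also lower and passed the FDR but not the ratio threshold. Of the 4 above 0, Neurod2 had 570 and 777 copies (log2 ratio 0.48). It passed the FDR (4.46e-09, Fisher's exact test) but not the ratio threshold. Dcx had 1337 and 1365 copies (0.07).
The markers of other cells were fewer. Of the astrocyte markers 4 of 6 were listed, with sums of 126 and 145 TPM and Aqp4 and Gjb6 absent. Microglial markers were listed for 3 of 6 genes, with 15.9 and 18.5 TPM and Cx3cr1, Itgam and Ptprc absent, and vascular markers for 2 of 7, with 2.95 and 1.51 TPM and Pecam1 and Cdh5 absent. All 5 fibroblast markers were listed, with 546 and 523 TPM. Of the erythroid markers 4 of 5 were listed, with 36.0 and 56.3 TPM, and Hba-a1, which shares near-identical sequence with other alpha-globin genes, was called higher, with 28 and 70 copies (log2 ratio 1.36). The part of these cell types in the members' ratios was not tested.

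The promoters of the members held letters that the rule did not use. RefSeq promoter windows of the GRCr8 assembly, from 250 bases before to 50 after the start of the gene, were found for 47 of the 51 genes. The letters of 3 motifs were searched on both strands, the E2F motif (TTT, then CC, CG, GC or GG, then CGC), the cell cycle homology region (CHR) TTTGAA, and the CCAAT box. E2F factors are known to act on genes of DNA synthesis, and the complexes that bind the CHR on genes of mitosis.
The E2F letters were found in 13 of the 21 windows of replication genes, in 0 of the 21 of mitosis genes and in 1 of the 5 of cyclin and kinase genes, against 2.25% of 27457 windows of all genes. The CHR letters were found in 1 of 21, 16 of 21 and 2 of 5 windows in the same order, against 18.1% of all windows, and 13 of the 19 members with them had a match that began within 50 bases of the start. CCAAT was found in 30 of the 47 members (63.8%), against 37.7% of all windows. Mcm2 and Cdk1 held both the E2F and the CHR letters.

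The windows from 120 bases before to 30 after the start are shown for the most copied replication gene and for 3 of the members that fell, with the E2F or CHR letters in capitals. All windows shown hold such letters, whereas the promoter windows of Pcna and Haus1, which also fell, hold neither.
Mcm7, chr12:22163149-22163298, minus strand: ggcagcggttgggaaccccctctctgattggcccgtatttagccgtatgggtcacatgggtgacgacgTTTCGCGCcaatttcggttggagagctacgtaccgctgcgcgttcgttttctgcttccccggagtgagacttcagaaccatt
Lig1, chr1:83243050-83243199, plus strand: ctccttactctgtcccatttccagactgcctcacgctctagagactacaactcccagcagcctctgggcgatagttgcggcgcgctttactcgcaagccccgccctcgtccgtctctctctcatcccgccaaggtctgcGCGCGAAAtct
Ttk, chr8:93634519-93634668, plus strand: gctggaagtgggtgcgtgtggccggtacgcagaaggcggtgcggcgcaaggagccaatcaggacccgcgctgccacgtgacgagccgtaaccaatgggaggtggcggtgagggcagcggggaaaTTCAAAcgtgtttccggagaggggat
Prc1, chr1:143659361-143659510, plus strand: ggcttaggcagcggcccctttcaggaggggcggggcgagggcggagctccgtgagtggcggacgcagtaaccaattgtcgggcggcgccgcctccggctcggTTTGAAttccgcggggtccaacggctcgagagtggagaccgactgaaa
The match in Mcm7 overlaps a CCAAT box, and those in Lig1 and Ttk are on the opposite strand.

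**Figure D4:**
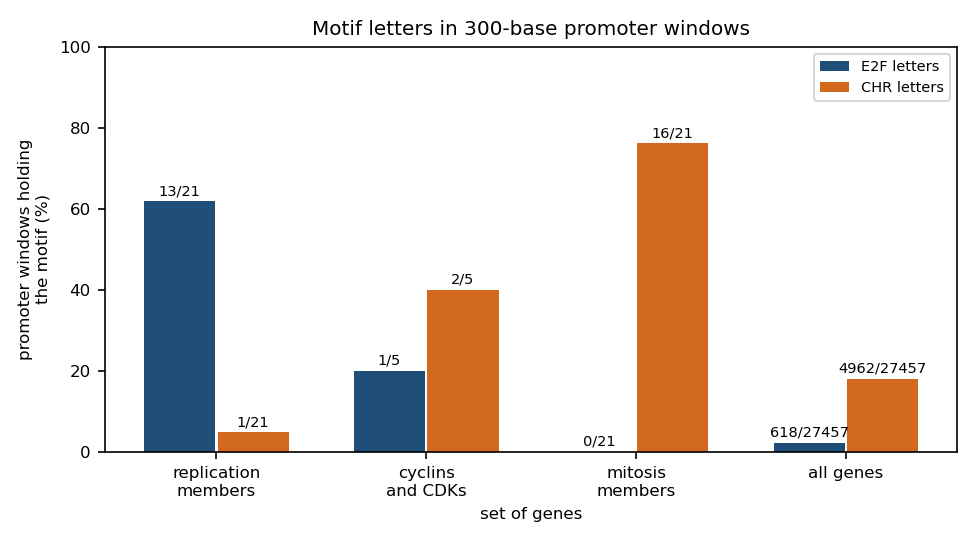
Share of 300-base promoter windows (vertical axis, percent) that hold the E2F (blue) or CHR (orange) letters, for replication members, cyclin and kinase members, mitosis members and all genes, with the number of windows above each bar. The E2F bar is highest for replication members (13 of 21) and the CHR bar for mitosis members (16 of 21).

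Members with and without these motifs were found among both higher and lower ratios. Of all genes listed in both libraries 56.7% lay below 0, and 5.97% of all genes were called lower and 2.96% higher. The 14 members with the E2F letters had a median log2 ratio of -0.41, with 12 below 0 and 1 (Lig1) called lower. Among them Mcm3, Pola1, Tyms, Chek1 and Fancd2 had under 100 copies in all, with log2 ratios from -2.42 to -0.83. The 30 without had a median of -0.19, with 18 below 0, 5 called lower and 1 higher, and also included members with under 100 copies. The 16 listed members with the CHR letters had a median of -0.30, with 11 below 0, 3 called lower (Smc2, Ttk and Prc1) and Ndc80 higher. The 28 without had a median of -0.15, with 19 below 0 and 3 called lower. The ratios ranged from -2.42 to 0.57 with the E2F letters and from -1.33 to 0.92 with the CHR letters.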

How the data were processed

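Digital gene expression tags were sequenced from 1 control and 1 RNAi library. The authors deposited, per gene, the tag count (copies summed over its tags) and TPM, which is the count per 1000000 clean tags of the library. The labels name the build rn4, and the program that matched tags to genes is not given in the sources used here. Every gene's count equalled the sum of its tags, no tag had under 2 copies, and 57.5% and 56.5% of the 3386865 and 3303360 clean tags (recovered from TPM) were on genes.

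Log2 ratios were taken from copies per clean tag. Each gene was compared by two-sided Fisher's exact test against all other copies on genes, with Benjamini-Hochberg adjustment (FDR) over 9894 genes, and called at the thresholds the study states. Intervals are exact (Clopper-Pearson, 95%) and cover counting error only, since copies are not independent molecules. edgeR's quasi-likelihood test could not be fitted with 1 library per condition. The members and lists were chosen with earlier results of these data known. Values are given for members that were called or had at least 50 copies in both libraries, and the other members are given more briefly. Alternatives were edgeR 4.0.16 (TMM, or its exact test at assumed values of the biological coefficient of variation), DESeq2 1.42.0 size factors, other totals, filters, thresholds and tag choices. For the tag-end correction, the median log2 ratio of each end class over tags with at least 20 copies, learned on other genes, was taken out. In simulated libraries with counting error alone, 97% of 200 genes changed 2-fold were recovered among 9894 genes and 1 unchanged gene was called. The 200 genes were drawn from those with at least 100 expected copies in the control library, so the 97% does not describe members with fewer. Python 3.11.15, SciPy 1.17.1 and R 4.3.3 were used. The marker list of the oligodendrocyte lineage is not reported here.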

Additional observations from a re-analysis of the deposited data

How the results depend on the processing

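The counts of members called (6 lower, 1 higher), their median log2 ratio (-0.22) and the log2 ratio of their summed copies (-0.18) depended on the scaling, the tag end and the assumed spread. With TMM factors 3 members were lower, the median was -0.12 and the summed ratio -0.090, and with DESeq2 size factors 3, -0.13 and -0.10. With the tag-end correction 2 were lower, with -0.11 and -0.10. With the most copied tag alone 4 members were higher and the median was -0.28. With a log2 threshold of 1, 2 were lower and 0 higher, and with an FDR threshold of 0.001, 1 was lower (Pcna) and 0 higher. When edgeR's exact test assumed a biological coefficient of variation of 0.1, 0.2 or 0.4, 0 members were lower and 0 higher. At an unadjusted p under 0.05 in that test, 11 lower and 1 higher of the 48 members passed with 0.1, 2 lower with 0.2 and 0 with 0.4. Of all genes, 12.9%, 5.15% and 1.15% passed in either direction, in the same order. The lowest FDR of a member with 0.1 was 0.105 (Ndc80, edgeR's exact test). Fisher's exact test without such spread gave the calls above.

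Of the ratios of single members, 14 changed sign, each for a member not called under the main setting or that alternative. Under the tag-end correction they were Aurka (0.018), Birc5 (0.11), Cdca3 (0.0054), Mcm6 (0.079) and Nuf2 (0.36), under TMM and DESeq2 scaling Cdt1 (0.014 and 0.0044), Gmnn (0.025 and 0.016) and Mcm4 (0.082 and 0.073), and with the most copied tag alone Aurkb (-0.22), Mcm4 (0.057) and Smc4 (0.84). In 48 cases a call was lost and in 7 one was gained, and 602 kept their side of the thresholds and their direction. The cause was not tested. No paired analysis was possible because each condition has 1 library, and for the same reason no replicate could be left out. Depth limits members with few copies, such as Chek1, Fancd2 and Uhrf1.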
